A study of Mus musculus with 6 samples.

Results

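Interferon response genes were followed in ribosome-protected fragments of ID8 cells, a mouse ovarian cancer line that arose from surface epithelium. The 43 genes were the rows of the deposited count table whose Ensembl identifier maps to a fixed list of symbols in GENCODE M21, and all 43 were found among 53465 genes. They were divided by role into 3 receptor chains, 5 transcription factors, 10 sensors and related RNA-binding proteins, and 25 effectors. The 43 genes, and the further lists below, were chosen with earlier results of these data known. The series compared 3 libraries labelled KO, made from ID8 cells given a guide RNA against Nat10 (sgNat10), with 3 libraries labelled WT, made from ID8 cells given a control guide (sgNC). NAT10 acetylates cytidine in RNA, and the stated question was whether it affects translation. All 6 libraries came from cells treated with cycloheximide at 100 µg/mL for 2 minutes before lysis. The series title also names cisplatin and a TGF-β inhibitor, but no label of these 6 libraries gives either treatment. Whether the KO cells were a clone or a pool, the site cut by the guide, and whether replicates were separate cultures are not stated in the labels. All p-values therefore describe spread among the 6 libraries, which may be technical.

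Cells detect viral or misplaced nucleic acid with sensors such as RIG-I and MDA5, which signal through IRF3 to switch on type I interferon. Secreted interferon binds its receptors, JAK kinases phosphorylate STAT proteins, and a complex that holds STAT2 and IRF9 binds the interferon-stimulated response element (ISRE) in the promoters of effector genes. The effectors block viral entry, translation and replication, and several of the sensors and transcription factors are themselves interferon-induced. In tumour cells the same pathway can run at a low level without infection.

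Total counts were 2541273, 2234305 and 3126208 in the KO libraries and 1687466, 2148715 and 1811225 in the WT libraries. A ribosome footprint count reflects both the amount of mRNA and how densely ribosomes occupy it, and fewer cells with footprints cannot be told apart from fewer footprints per cell. The most frequent gene count between 8 and 150, read from a smoothed histogram, was 42, 46 and 60 in the KO libraries and 15, 21 and 39 in the WT libraries, and a count divided by this modal count is called molecule equivalents below. Library depth and the modal count thus moved with the label, and their part in the results below was not tested. Nat10 itself had counts of 315, 133 and 445 in the KO libraries, against 168, 128 and 292 in the WT libraries, with levels of 106 ± 43.1 CPM in KO and 112 ± 53.1 CPM in WT (SD, n = 3 each), where CPM is the usual depth-scaled count, here on TMM-adjusted library sizes. Its log2 fold change was -0.07 (SE 0.48), and edgeR's quasi-likelihood adjusted p was 1.0, so a direction below is that of the label KO, without a measured fall of Nat10 footprints. The epithelial and mesothelial markers of the line were present, with counts for 10 of 11 (Epcam was at 0). Their summed level was 5069, 5337 and 4681 CPM in KO, against 6259.7, 6677 and 6225 CPM in WT, so that every KO library lay below every WT library. Of their 7 tested members 1 was called higher (Msln) and 2 lower (Krt18 and Krt19). Of all tested genes 0.183% were called higher and 0.22% lower. Among 15 leukocyte markers 10 had no count in any library, Cd3e and Itgam included, and Ptprc had 1 count in all. The list summed to 0 to 5 counts in KO and 0 to 29 in WT, and all counts in WT were from Cd68. The 8 fibroblast and endothelial markers summed to 5 to 14 counts in KO and 0 to 12 in WT, with the highest single counts for Pdgfra and Tek, and Thy1 was at 0. The part of these markers in the results was not tested.

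No interferon response gene passed the test between KO and WT. Of the 43 genes 40 had at least 1 count, 30 passed the filter on low counts, and 0 of these 30 had an adjusted p under 0.05 in edgeR's quasi-likelihood test. Of all 8200 tested genes 33 were called (0.402%), higher for 0.183% and lower for 0.22%, so 0 of 30 is near the background. DESeq2 and limma-voom likewise called 0 of the 30, and called 2.85% and 1.13% of all tested genes. At an unadjusted p under 0.05, 2 members were higher in KO, Eif2ak2 and Rnf213, and 0 were lower, where 2.7% and 3.79% of all tested genes were higher and lower.

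More of the fold changes were positive than negative. The log2 fold change (KO minus WT) lay above 0 for 20 of 30 members, where 49% of all tested genes were above 0, and its median was 0.48 for the members and -0.016 for all tested genes. Without KO replicate 2 the members' median was 0.21, and without WT replicate 1 it was 0.84. Because the filter keeps a gene that is high in a single group, the 30 are not a neutral sample of the list. Among all 40 members with a count, the mean level was higher in KO for 27 and lower for 13, where 49.7% of all genes with a count were higher in KO. The highest library was a KO library for 21 of the 30 tested members, against 52.5% of all tested genes, and the lowest was a KO library for 14, against 61.2% of all tested genes. The summed level of all 43 genes was 2555, 3193 and 3375 CPM in KO, against 2065, 2486 and 2303 CPM in WT. Rnf213 alone gave a large part of that sum; without it the sums were 1430.1, 1598 and 1339 CPM in KO, against 1032, 1199.7 and 1126 CPM in WT. The KO sums lay above the WT sums both with and without Rnf213, which is a description of a chosen list and carries no test.

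**Figure D1:**
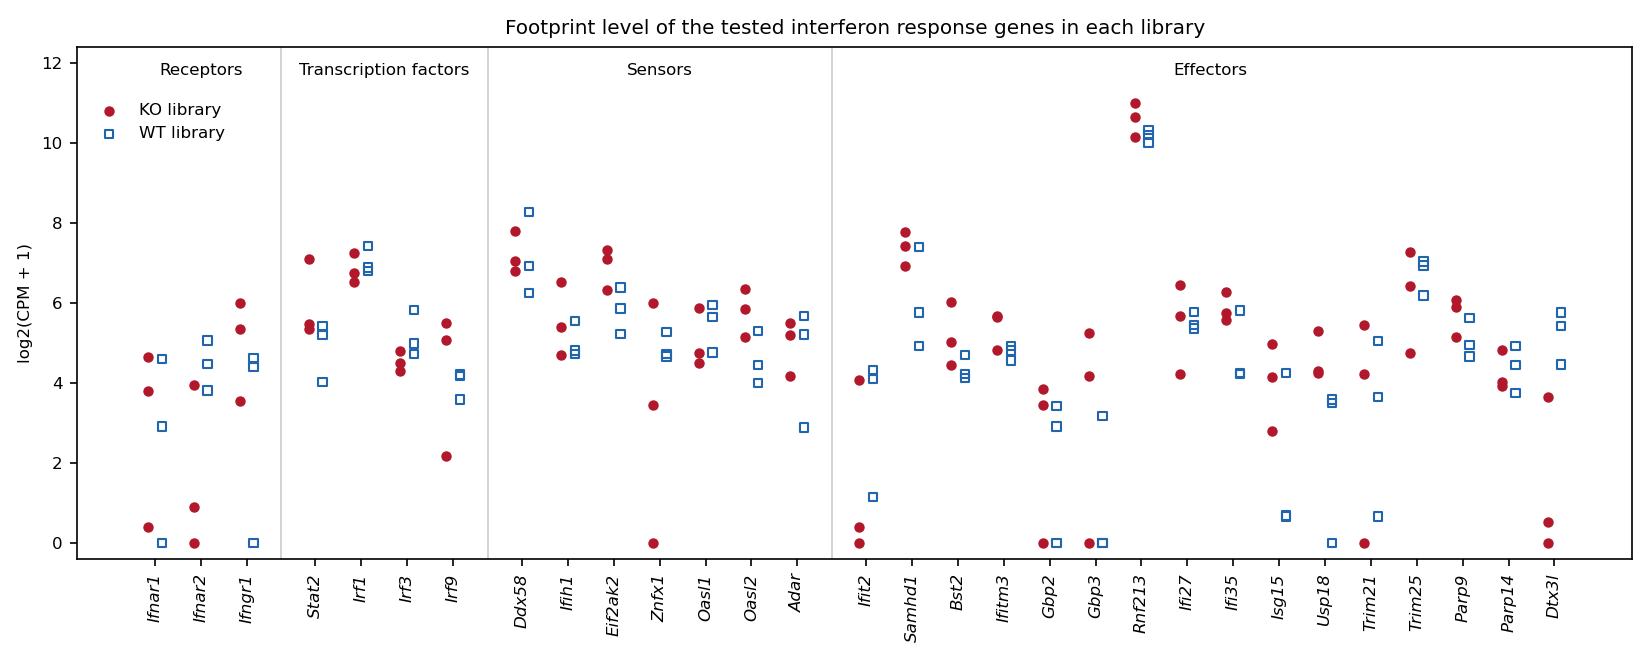
Level of each tested member in every library, as log2(CPM + 1), with KO libraries as filled circles to the left and WT libraries as open squares to the right of each gene name, grouped by role. For most genes the groups overlap; the 6 points of Rnf213 lie above those of every other member.

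Most members were covered thinly. Only 8 of the 30 tested members averaged at least 3 molecule equivalents over the 6 libraries (26.7%), where 44.3% of all tested genes did. These 8 were Rnf213, Ddx58, Irf1, Samhd1, Trim25, Eif2ak2, Ifi27 and Stat2, and 5 of them had a positive fold change (median 0.31, against -0.042 over all tested genes at that depth). A count of at least 0.5 modal counts was reached by 28, 30 and 28 members in the KO libraries and by 28, 30 and 22 in the WT libraries. Over all genes of the table it was reached by 7212, 6896 and 7118 in KO, against 8356, 8108 and 6577 in WT. Per kilobase of coding length, the member with the highest mean level over the 6 libraries was Irf1, at 126 CPM per kb with a range of 92.1 to 173 over libraries. Rnf213 followed at 89.0 and Ifitm3 at 83.2 CPM per kb, with ranges of 66.8 to 132 and 54.9 to 122. The ranges of these 3 overlapped, but Irf1 lay above Rnf213 in every library. Ifitm3 lay above Irf1 in KO replicate 2 alone. The next 7 in order, Samhd1, Ifi27, Eif2ak2, Ddx58, Bst2, Ifi35 and Trim25, averaged between 64.3 and 51.4 CPM per kb, and their ranges over libraries all overlapped. Oasl2 and Oasl1, the next members in order, averaged 26.9 and 26.2 CPM per kb.

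Promoter sequences show which members carry the sequence that the complex holding STAT2 and IRF9 is known to bind. RefSeq promoters on GRCm38.p6, from 250 bases before to 50 bases after each annotated start, were matched by symbol for 35 of the 43 members, and Dhx58, Ifi27, Mx1, Mx2, Parp9, Parp14, Usp18 and Zbp1 had no entry. An ISRE-like core, a pair of GAAA runs with any 2 bases between them, was searched on both strands and was present in 15 of the 35 (42.9%), where 3.99% of all 27025 genes with a promoter held it. A gene counted where any of its annotated promoters matched, and 6 members had several. It was found for 0 of 3 receptors, 1 of 5 transcription factors, 4 of 8 sensors and 10 of 19 effectors. A gamma-activated site, searched as TTCNNNGAA, was present in 11 of the 35 (31.4%), against 9.55% of all genes. Neighbouring ISRE matches overlapped each other in Bst2, Gbp3, Isg15, Oas1a and Trim21, and matches of both motifs overlapped in Bst2 and Ifitm3. A match describes the letters only and is not a measured site. The whole promoter is printed for 4 members whose footprints are described below: the sensor Eif2ak2 and the transcription factor Stat2, which had the smallest unadjusted p of their role, Rsad2, which had counts in KO libraries alone, and Dtx3l, which was lower in every KO library. Capitals mark the ISRE-like matches, which read as TTTC runs where the core lies on the other strand; Dtx3l has none.
Eif2ak2 (chr17:78882523-78882822, minus strand): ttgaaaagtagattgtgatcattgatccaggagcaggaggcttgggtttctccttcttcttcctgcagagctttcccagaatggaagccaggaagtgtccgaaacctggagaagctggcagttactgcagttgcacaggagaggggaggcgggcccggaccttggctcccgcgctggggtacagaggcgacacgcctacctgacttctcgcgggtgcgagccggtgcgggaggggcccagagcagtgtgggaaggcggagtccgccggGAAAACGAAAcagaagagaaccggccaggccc
Stat2 (chr10:128270248-128270547, plus strand): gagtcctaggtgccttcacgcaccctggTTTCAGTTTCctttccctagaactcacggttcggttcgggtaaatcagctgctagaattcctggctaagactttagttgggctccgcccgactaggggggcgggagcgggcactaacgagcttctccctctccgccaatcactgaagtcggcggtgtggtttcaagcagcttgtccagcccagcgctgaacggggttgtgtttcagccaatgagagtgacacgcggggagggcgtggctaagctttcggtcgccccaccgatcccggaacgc
Rsad2 (chr12:26456403-26456702, minus strand): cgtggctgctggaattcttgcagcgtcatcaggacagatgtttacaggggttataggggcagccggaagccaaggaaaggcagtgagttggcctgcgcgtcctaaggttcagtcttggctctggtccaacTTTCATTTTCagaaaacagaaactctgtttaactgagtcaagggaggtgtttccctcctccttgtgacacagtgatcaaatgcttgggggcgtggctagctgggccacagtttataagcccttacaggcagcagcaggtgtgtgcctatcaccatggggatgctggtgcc
Dtx3l (chr16:35938978-35939277, minus strand): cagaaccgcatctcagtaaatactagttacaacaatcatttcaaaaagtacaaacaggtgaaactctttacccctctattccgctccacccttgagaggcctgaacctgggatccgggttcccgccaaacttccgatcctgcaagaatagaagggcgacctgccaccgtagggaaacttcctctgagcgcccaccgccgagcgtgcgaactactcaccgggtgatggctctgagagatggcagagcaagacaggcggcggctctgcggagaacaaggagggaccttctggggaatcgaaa
Short stretches around the first match are shown for 6 more members, to compare the core and its flanks between sensors (Ifih1 and Ddx58) and effectors (Isg15, Bst2, Ifitm3 and Ifit1). In these stretches capitals mark the first match alone. In Isg15 and Bst2 the next match, from -72 and -124, overlaps it and runs on in lower case.
Ifih1 (chr2:62646206-62646233, minus strand): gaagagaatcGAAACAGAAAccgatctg
Ddx58 (chr4:40239804-40239833, minus strand): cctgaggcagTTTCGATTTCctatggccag
Isg15 (chr4:156200877-156200906, minus strand): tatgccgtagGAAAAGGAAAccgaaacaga
Bst2 (chr8:71537583-71537612, minus strand): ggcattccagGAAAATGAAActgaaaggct
Ifitm3 (chr7:141010723-141010752, minus strand): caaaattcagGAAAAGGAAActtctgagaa
Ifit1 (chr19:34640775-34640804, plus strand): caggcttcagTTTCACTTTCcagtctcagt
Counted from the annotated start as 0, these 6 matches began at 32, 2, -78, -130, 2 and -104.

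**Figure D2:**
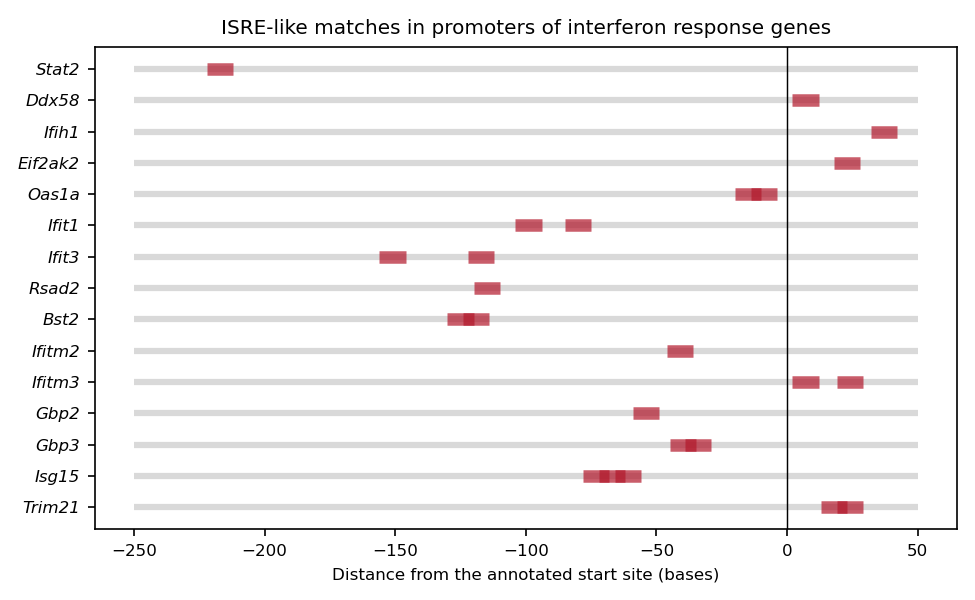
Position of each ISRE-like match (red) in the promoter window (grey) of the 15 members that hold one, in bases from the annotated start site at 0. The match in Stat2 lies farthest upstream, at -222, and those of Ddx58, Ifih1, Eif2ak2, Ifitm3 and Trim21 lie after the start.

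The 3 receptor chains were sparse, and none differed beyond the spread of its libraries. Ifngr1, the ligand-binding chain of the receptor for interferon gamma, had 62.4, 10.7 and 39.7 CPM in KO, against 20.1, 0 and 23.7 CPM in WT. The highest value was in a KO library, but WT replicates 1 and 3 lay above KO replicate 2, and the log2 fold change was 1.37 (SE 1.503). Ifnar1 and Ifnar2 form the receptor for type I interferons. Ifnar1 had 12.9, 23.98 and 0.310 CPM in KO, against 23.1, 6.496 and 0 CPM in WT, with each group spread from near 0 to about the same height. Ifnar2 had 14.4, 0.856 and 0 CPM in KO, against 21.3, 13.0 and 32.4 CPM in WT; WT replicate 2 lay just below KO replicate 1, and every other WT value lay above every KO value. Its log2 fold change was -2.11 (SE 2.24), and at a mean of 0.989 molecule equivalents the 95% interval ran from -6.90 to 2.68.

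Transcription factors of the pathway went both ways, with 2 of 4 tested members above 0, and Irf7 was too low to test. Stat2, the STAT that recruits IRF9, had 39.8, 43.2 and 137 CPM in KO, against 15.2, 42.0 and 35.8 CPM in WT. KO replicate 3 stood far above the other 5 libraries, and KO replicates 1 and 2 lay beside WT replicate 2. Its log2 fold change was 1.24 (SE 0.71), with an unadjusted p of 0.0999 (edgeR, adjusted p = 0.96), and was 0.42 without KO replicate 3. Irf9, the DNA-binding partner of the STATs, had 3.51, 44.1 and 32.6 CPM in KO, against 17.0, 17.5 and 10.98 CPM in WT, with 1 KO library below all WT libraries and the other 2 above them, and a log2 fold change of 0.81 (SE 1.504). Irf3, the factor that the sensors activate to induce interferon, had 18.7, 27.0 and 21.4 CPM in KO, against 55.3, 25.5 and 30.6 CPM in WT, and its groups overlapped at a log2 fold change of -0.73 (SE 1.03). Irf1, a factor induced by interferon gamma that also maintains basal expression of antiviral genes, had 90.9, 107 and 152 CPM in KO, against 117, 110.4 and 171 CPM in WT. The groups interleaved, and its fold change of -0.19 (SE 0.38) on the log2 scale had the narrowest 95% interval of the list after Rnf213, -1.01 to 0.63, and the interval of the fold, KO over WT, was 0.496 to 1.55. Irf7, the amplifier of the type I interferon loop, had a single library with counts, 13 in WT replicate 1, and 0 in the other 5.

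Among the sensors, Eif2ak2 had the smallest unadjusted p of the whole list. Eif2ak2, the kinase PKR, binds double-stranded RNA and shuts down translation by phosphorylating eIF2α; the gene lies on chromosome 17, 78852564 to 78882573 in GRCm38, minus strand. It had 137, 158 and 79.1 CPM in KO, against 82.7, 57.0 and 36.4 CPM in WT. KO replicates 1 and 2 lay above all WT libraries, and KO replicate 3 lay just below WT replicate 1. Levels averaged 125 ± 41.0 CPM in KO and 58.7 ± 23.2 CPM in WT (SD, n = 3 each), a fold of 2.12 with a 95% interval of 1.04 to 4.33. The log2 fold change was 1.09 (SE 0.48), with an unadjusted p of 0.0396 and an adjusted p of 0.71 in edgeR's quasi-likelihood test. It stayed between 0.83 and 1.41 when single libraries were left out, and its lowest adjusted p under 16 other settings was 0.20. Its exons overlap those of a lincRNA and an annotated 5S rRNA copy on the other strand, and whether counting used strand is not stated.

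Both RIG-I-like receptors with counts in every library showed overlapping groups. Ddx58, which encodes RIG-I, had 111, 221 and 131 CPM in KO, against 74.8, 120.4 and 309 CPM in WT. The highest and the lowest library were both WT, and the log2 fold change was -0.12 (SE 0.47), with a 95% interval of -1.13 to 0.88 and a sign that changed in 5 of 16 other settings. Ifih1, which encodes MDA5, had 41.0, 90.3 and 24.8 CPM in KO, against 45.6, 27.0 and 25.4 CPM in WT, with KO replicate 2 above the rest, KO replicate 3 the lowest of all 6, and a log2 fold change of 0.67 (SE 0.77). Dhx58, the third RIG-I-like receptor (LGP2), had 53 counts in KO replicate 3 and 0 in the other 5 libraries, under 1 modal count.

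The OAS-like proteins, related to enzymes that make 2'-5' oligoadenylate, had fold changes of opposite sign, neither past the test. Oasl2 had 56.6, 80.9 and 34.4 CPM in KO, against 38.3, 15.0 and 20.8 CPM in WT; KO replicate 3 lay just below WT replicate 1, and all other KO values lay above all WT values (log2 fold change 1.21, SE 0.78). Oasl1, described in mice as a repressor of Irf7 translation, had 25.7, 57.4 and 21.7 CPM in KO, against 26.1, 60.5 and 49.1 CPM in WT, with overlapping groups and a log2 fold change of -0.37 (SE 0.80). The difference between these neighbouring paralogs on chromosome 5 was not tested, and short fragments of paralogs can be assigned to either. Oas1a, a 2'-5' oligoadenylate synthetase, had 36 counts in WT replicate 2 and 0 elsewhere.

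Adar, the enzyme that edits adenosine in double-stranded RNA and so restrains the sensors, had 35.5, 44.5 and 17.1 CPM in KO, against 49.9, 36.0 and 6.36 CPM in WT. The KO values lay within the range of the WT values, and the log2 fold change was 0.07 (SE 1.05). Znfx1, a helicase that senses RNA at mitochondria, had 63.2, 9.85 and 0 CPM in KO, against 25.5, 37.5 and 24.3 CPM in WT, with 1 KO library above and 2 below all WT libraries (log2 fold change -0.26, SE 1.53). Zbp1, which senses left-handed nucleic acid and triggers necroptosis, had no count in any library. A count of 0 allows up to 3 counts, or 0.921 to 1.80 CPM depending on the library, if every count stood for a separate molecule. The modal count was 15 to 60 over the libraries, and where a molecule gave many counts this limit is too narrow.

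Of the 16 effectors tested 12 had a positive log2 fold change, with a median of 0.57, where 49% of all tested genes were positive. For the 9 antiviral proteins among them 8 were positive with a median of 0.68. Those 9 are the ones of 18 that passed the filter on low counts. For the 7 effectors of the ISG15 and ubiquitin branch 4 were positive, with a median of 0.44. Sensors likewise had 4 of 7 positive, with a median of 0.07. Rnf213, a very large AAA-type ATPase and ubiquitin ligase with antimicrobial activity, was by far the most counted member and lies on chromosome 11, 119393100 to 119487418, plus strand. It had 1125, 1595 and 2036 CPM in KO, against 1033, 1287 and 1177 CPM in WT. KO replicates 2 and 3 lay above all WT libraries, and KO replicate 1 lay among them. Levels averaged 1585 ± 456 CPM in KO and 1166 ± 127 CPM in WT (SD, n = 3 each), a fold of 1.36 with a 95% interval of 1.001 to 1.85. The log2 fold change of 0.44 (SE 0.21) had an unadjusted p of 0.0494 and an adjusted p of 0.77 in edgeR's quasi-likelihood test. It was 0.22 without KO replicate 3 and 0.65 at most without another library, and at 91.2 molecule equivalents a change of 2-fold or more in either direction lay outside its interval.

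Samhd1, which hydrolyses deoxynucleotides and restricts retroviruses, had 121, 219 and 171 CPM in KO, against 29.2, 167 and 53.2 CPM in WT. KO replicates 2 and 3 lay above all WT libraries, and KO replicate 1 lay below WT replicate 2. The log2 fold change was 1.03 (SE 0.54), with an unadjusted p of 0.0766 (edgeR, adjusted p = 0.88), and was 0.63 without WT replicate 1 and 2.05 without WT replicate 2.

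Membrane proteins that block viral entry or release had positive fold changes that did not pass the test. Ifitm3, which stops viruses from fusing in endosomes, had 27.3, 49.2 and 49.9 CPM in KO, against 29.2, 27.0 and 22.5 CPM in WT. KO replicates 2 and 3 stood above the WT libraries and KO replicate 1 among them (log2 fold change 0.68, SE 0.88). Its neighbour Ifitm2 had counts of 0, 6 and 1 in KO, against 2, 0 and 0 in WT, and fragments of these close paralogs can be assigned to either. Bst2, the tetherin that holds budding virus at the cell surface, had 63.6, 21.0 and 31.6 CPM in KO, against 17.6, 16.5 and 24.9 CPM in WT; KO replicates 1 and 3 lay above all WT libraries, and KO replicate 2 lay between WT values (log2 fold change 0.98, SE 1.07).

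Other antiviral effectors were low or mixed. Ifi35, a regulator of innate signalling that partners with Nmi, had 52.3, 46.7 and 76.3 CPM in KO, against 17.6, 55.0 and 17.9 CPM in WT, with WT replicate 2 inside the KO range (log2 fold change 0.95, SE 0.75). Ifi27, a small mitochondrial and membrane protein, had 49.9, 86.5 and 17.7 CPM in KO, against 40.1, 53.5 and 42.8 CPM in WT, with KO libraries at both extremes (log2 fold change 0.17, SE 0.70). The guanylate-binding proteins are GTPases that attack vacuoles of pathogens. Gbp3 had 0, 37.3 and 17.1 CPM in KO, against 0, 7.99 and 0 CPM in WT, and its fold change of 2.73 (SE 2.72) on the log2 scale was the largest positive one of the list at 0.595 molecule equivalents. Gbp2 had 0, 13.3 and 9.93 CPM in KO, against 9.73, 6.496 and 0 CPM in WT, with overlapping groups (log2 fold change 0.51, SE 2.55).

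The IFIT genes, of which Ifit1 encodes a protein that binds foreign RNA 5' ends and blocks its translation, were near the limit of detection. Ifit2 had 0, 15.8 and 0.310 CPM in KO, against 1.22, 19.0 and 16.2 CPM in WT (log2 fold change -1.17, SE 2.51). Only WT replicate 2 lay above 1 modal count for this gene. Ifit1 had counts of 24, 39 and 1 in the KO libraries, against 0, 9 and 1 in the WT libraries, and Ifit3 had 64 counts in KO replicate 1, 1 in KO replicate 3 and 0 elsewhere. None of the IFIT genes reached 1 modal count in all libraries of a group.

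Effectors of the ISG15 and ubiquitin branch held the only 2 tested members whose groups did not overlap, one in each direction. Across all tested genes, the KO libraries lay wholly above the WT libraries for 6.94% and wholly below for 7.93%, so 1 of 30 each way is not above the background. Usp18, the protease that removes ISG15 and dampens the type I receptor, had 38.2, 18.0 and 18.6 CPM in KO, against 10.3, 10.99 and 0 CPM in WT. Every KO library lay above every WT library (log2 fold change 1.80, SE 1.96, edgeR adjusted p = 1.0), at a mean of 1.07 molecule equivalents. Isg15, the ubiquitin-like modifier itself, had 30.4, 5.99 and 16.8 CPM in KO, against 0.608, 18.0 and 0.578 CPM in WT, where WT replicates 1 and 3 held 1 count each and WT replicate 2 lay inside the KO range (log2 fold change 1.46, SE 2.20). Trim25, the ubiquitin ligase that activates RIG-I, had 153, 25.7 and 85.0 CPM in KO, against 122, 130.4 and 71.7 CPM in WT; KO replicates 1 and 2 were the highest and the lowest library (log2 fold change -0.30, SE 0.56). Trim21, an antibody receptor in the cytosol and ubiquitin ligase, had 42.5, 17.6 and 0 CPM in KO, against 32.2, 11.5 and 0.578 CPM in WT, with overlapping groups (log2 fold change 0.44, SE 2.03).

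Dtx3l and Parp9, which encode a ubiquitin ligase and an ADP-ribosyltransferase family member that bind each other, had fold changes of opposite sign. Dtx3l had 0, 0.428 and 11.5 CPM in KO, against 42.0, 21.0 and 53.2 CPM in WT. Every KO library lay below every WT library, and the log2 fold change was -3.25 (SE 1.85), with an unadjusted p of 0.10 and an adjusted p of 0.96 (edgeR). Parp9 had 58.5, 34.3 and 66.7 CPM in KO, against 29.8, 48.5 and 24.3 CPM in WT; KO replicates 1 and 3 lay above all WT libraries and KO replicate 2 among them (log2 fold change 0.64, SE 0.72). The genes lie head to head on chromosome 16 with annotated spans that overlap by 682 bases, and some of their exons overlap on opposite strands. The difference between the partners was tested after their values were seen, as log2(CPM + 1) of Dtx3l minus that of Parp9 in each library. It was -5.90, -4.63 and -2.44 in the KO libraries, against 0.48, -1.17 and 1.10 in the WT libraries, and the means differed by -4.46. The exact two-sided permutation test over 20 assignments gave p = 0.1, the smallest it can give with 3 libraries a group. The values had been seen, and the KO differences already lay below all WT differences. The test could thus give no other p, and no conclusion is drawn from it. Dtx3l had 0 counts in KO replicate 1 and 1 in KO replicate 2, so the size of the difference there depends on the added 1 CPM. Dtx3l averaged only 1.60 molecule equivalents. Parp14, another ADP-ribosyltransferase of this chromosome 16 cluster, had 27.3, 14.1 and 15.2 CPM in KO, against 29.2, 12.5 and 20.8 CPM in WT, with overlapping groups (log2 fold change -0.14, SE 1.49).

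**Figure D3:**
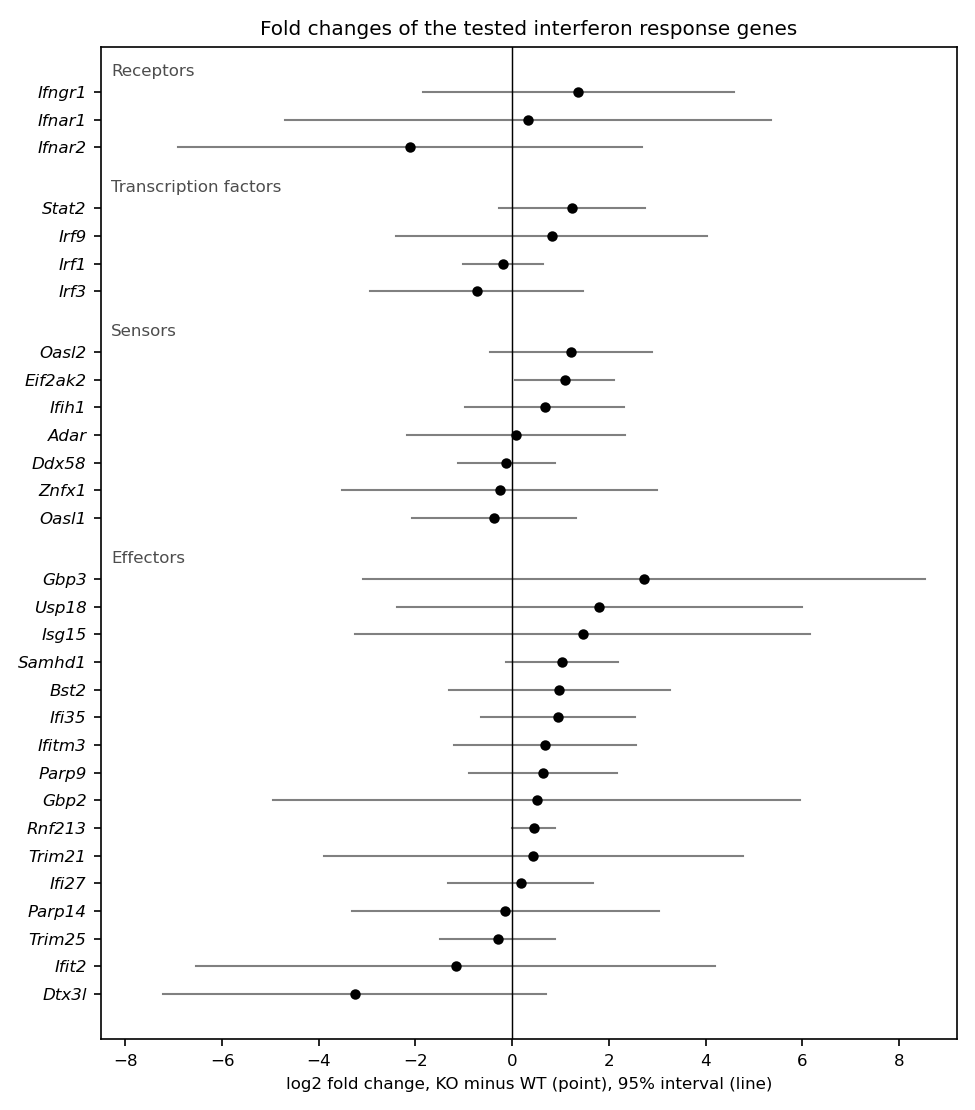
Log2 fold change, KO minus WT, of the 30 tested members with its 95% interval, grouped by role and sorted within each role. Only the intervals of Eif2ak2 and Rnf213 lie wholly above 0, none lies wholly below it, and most span several units.

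The other 13 members were too low to test. Zbp1, Mx1 and Ifi44 had no count in any library; Mx1, an antiviral GTPase, is known to carry a large deletion in many inbred mouse strains, and Ifi44 is an interferon-induced protein. Of the other 10, 5 had counts in KO libraries alone, 3 in WT libraries alone and 2 in both. The 5 in KO alone were Rsad2, Cmpk2, Mx2, Ifit3 and Dhx58. Rsad2, the enzyme viperin that makes a chain-terminating nucleotide, had counts of 49, 58 and 0 in the KO libraries, against 0, 0 and 0 in the WT libraries. Cmpk2, the nucleotide kinase beside it on chromosome 12, had counts of 1, 54 and 65 in the KO libraries, against 0, 0 and 0 in the WT libraries, and Mx2, the second Mx GTPase, had counts of 0, 18 and 72 in the KO libraries, against 0, 0 and 0 in the WT libraries. The 3 in WT alone were Irf7, Oas1a and Xaf1, a proapoptotic protein that had 7 counts in WT replicate 2. Among all 2380 untested genes with a highest count of at least 10, 22.8% had counts in KO alone and 30% in WT alone; of the 8 such members, 5 had them in KO alone and 2 in WT alone. Each of these counts came to at most 1.71 molecule equivalents, so no fold is given.

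**Figure D4:**
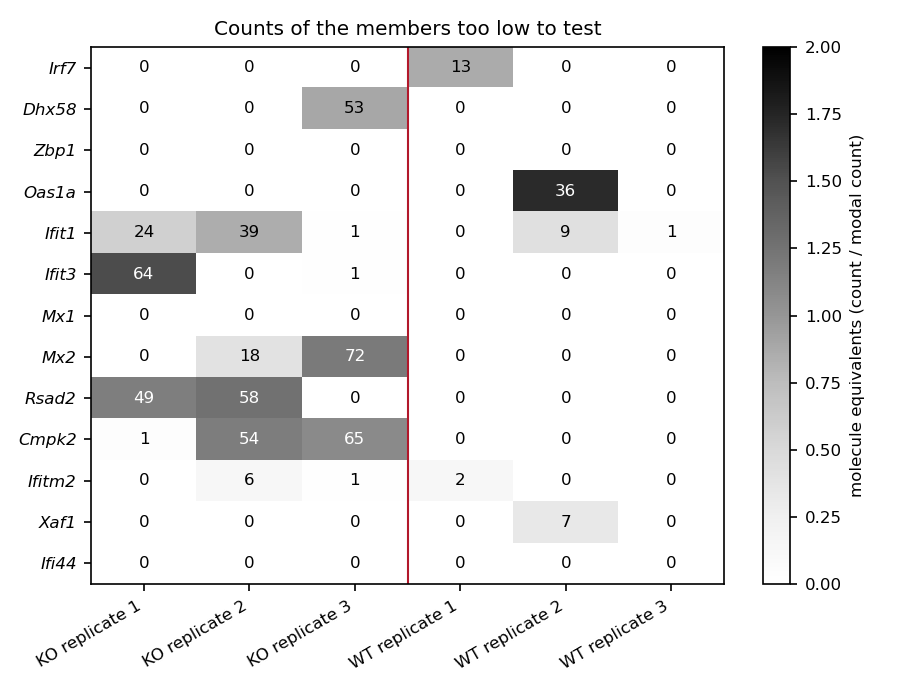
Counts (numbers) of the 13 untested members in each library, with shading by molecule equivalents. Rsad2, Cmpk2, Mx2, Ifit3 and Dhx58 have counts in KO libraries (left of the line) and 0 in all WT libraries, and no value exceeds 1.71 modal counts.

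The rest of the pathway was read from 2 further lists. Of 31 genes of interferon signalling and sensing outside the members 16 were tested, with 0 called higher and 1 lower in KO (0.402% of all genes were called), 6 positive fold changes (49% of all tested genes were positive) and a median of -0.21. Jak1, the kinase that both interferon receptor types use, was the called gene. It lies on chromosome 4, 101152367 to 101265282, minus strand, and had 171, 114 and 61.4 CPM in KO, against 365, 373 and 398 CPM in WT. Levels averaged 115 ± 54.7 CPM in KO and 379 ± 16.9 CPM in WT (SD, n = 3 each), and the groups did not overlap. Jak1 fell by 1.72 (SE 0.35) on the log2 scale, with an edgeR adjusted p of 0.0489, close to the threshold. It was called in 8 of 16 other settings, and without single libraries the adjusted p was 0.041 without KO replicate 1 and 0.086 to 0.23 without any other. The log2 fold change was -1.42 without KO replicate 3 and -1.68 to -1.74 without KO replicate 2 or any WT library, so the call was lost in those 5 fits while the size of the difference stayed similar. Over all genes, calls were 6 to 29 without single libraries, where 33 were called with all 6. Of the 11 other tested genes within 2 Mb of Jak1 on chromosome 4, a window chosen after its value was seen, 8 had a negative fold change, with a median of -0.97 against -0.12 over the other 498 tested genes of the chromosome. Pgm1, a phosphoglucomutase gene in that window, was also called lower (log2 fold change -2.51, SE 0.29, edgeR adjusted p = 0.00093). Whether this stretch of the chromosome bears on Jak1 was not tested.

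**Figure D5:**
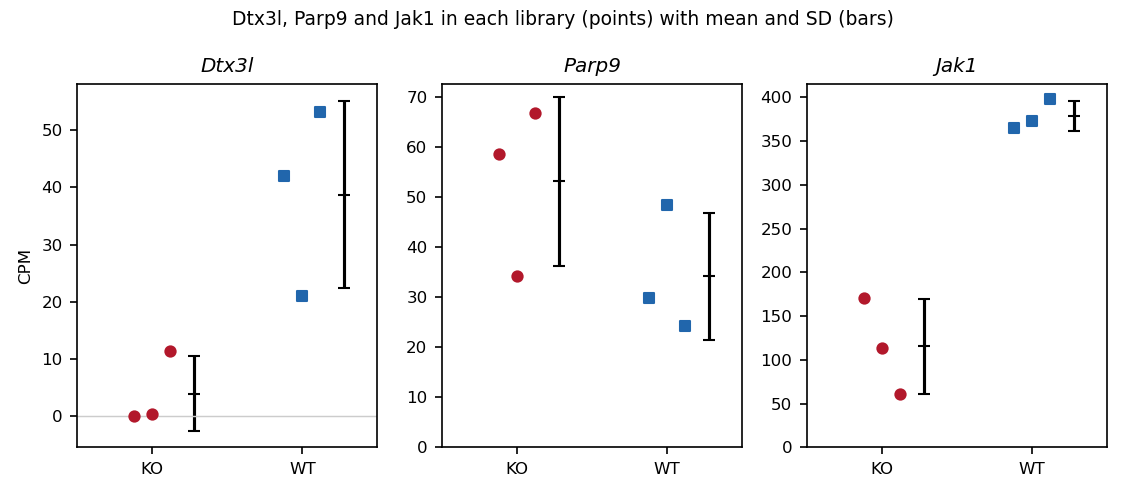
Level in CPM of Dtx3l, Parp9 and Jak1 in each library (points), with KO to the left of WT and bars for mean and SD (n = 3 each). KO values lie below all WT values for Dtx3l and Jak1, and overlap them for Parp9.

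None of the other signalling genes passed. Jak2, the partner of Jak1 at the interferon gamma receptor, had 13.3, 9.85 and 54.6 CPM in KO, against 0, 4.50 and 0 CPM in WT (log2 fold change 4.04, SE 2.43). Every KO library lay above every WT library, as for 6.94% of all tested genes. Irf2, a repressor that competes with Irf1, had 35.1, 25.7 and 63.9 CPM in KO, against 89.4, 106 and 57.2 CPM in WT (log2 fold change -1.02, SE 0.58). Tmem173, the DNA pathway adaptor STING, stood at a log2 fold change of 0.76 (SE 0.58), and Socs3, a feedback inhibitor of JAK kinases, at -1.16 (SE 1.12).

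Of 76 further interferon-induced genes 36 were tested and 0 were called in either direction by edgeR, where 0.402% of all tested genes were called. At an unadjusted p under 0.05, 3 were higher and 0 lower, against 2.7% and 3.79% of all tested genes. Positive fold changes were found for 24 of the 36, against 49% of all tested genes, with a median of 0.31 (-0.016 over all tested genes). Only 13 of the 36 averaged at least 3 molecule equivalents, and 7 of these were positive. The filter keeps a gene that is high in a single group, so the 36 are not a neutral sample of the list. Among the 53 genes of the list with a count, the mean level was higher in KO for 34 and lower for 19. Trim56, a ubiquitin ligase of the STING and RNA-sensing pathways, had 135, 44.5 and 82.2 CPM in KO, against 49.3, 5.50 and 9.25 CPM in WT, and the log2 fold change was 2.04 (SE 0.82). Psmb10, a subunit of the immunoproteasome, had 128, 31.3 and 5.58 CPM in KO, against 0, 9.49 and 0 CPM in WT, with most of its counts in KO replicate 1 (log2 fold change 4.07, SE 1.74). Helz2, a helicase and transcriptional coactivator, had 37.5, 107 and 87.2 CPM in KO, against 26.1, 9.49 and 37.6 CPM in WT, with only WT replicate 3 reaching the KO range (log2 fold change 1.66, SE 0.71). Mov10, an RNA helicase that restricts retroelements, was the lowest in p among the negative ones, with 40.2, 76.6 and 63.3 CPM in KO, against 117, 153 and 68.8 CPM in WT (log2 fold change -0.91, SE 0.49). Irgm1, an immunity-related GTPase that acts in autophagy, had 167, 168 and 144 CPM in KO, against 63.2, 113 and 119.7 CPM in WT, with no overlap between groups and an edgeR adjusted p of 0.92.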

How the data were processed

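Ribosome-protected fragments of ID8 cells were sequenced in 6 libraries, mapped to group and replicate by title. Per the labels' protocols, adapters were trimmed with Cutadapt, reads of 25 to 34 nt kept, rRNA and tRNA reads removed with Bowtie, and the remainder aligned with HISAT2 (genome, GRCm38) and Bowtie (transcripts). Per the submitters' processing notes, the tools include featureCounts and DESeq2, without versions. No source used here gives the strand setting, the rule for multiple matches or any duplicate removal. Exons of several members overlap those of other genes. Ifnar2 (Gm21970), Irf9 (Rnf31) and Ifitm2 (Gm45717) overlap a protein-coding gene on the same strand. Irf1 (Gm17334), Irf3 (Bcl2l12), Irf7 (Phrf1) and Adar (Chrnb2) overlap one on the other strand. How reads in such stretches were assigned is not stated. The authors deposited whole-number counts per Ensembl gene, not normalized; 53360 of 53465 identifiers matched GENCODE M21.

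The whole table was fitted with edgeR 4.0.16 (R 4.3.3; TMM, filterByExpr, robust quasi-likelihood test, KO minus WT), Benjamini-Hochberg adjusted over 8200 tested genes, called under 0.05. Intervals are 95% from the fit, and levels are CPM. The modal count was the peak of each library's smoothed gene counts from 8 to 150 (bandwidth 3). DESeq2 1.42.0, limma 3.58.1 (voom), other scalings, filters, a replicate block and single-library removal were alternatives. Tables and plots used Python 3.11.15. All 43 members are described, those not tested by their counts; of each further list, called genes and up to 5 with the smallest p are named. The members and lists were chosen with earlier results of these data known. No molecular identifiers are described, so limits for counts of 0 cover counting error only.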

Additional observations from a re-analysis of the deposited data

How the results depend on the processing

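Under 16 alternatives the number of members called stayed at 0, including DESeq2, limma-voom and each removal of 1 library, while calls over all genes were 33 in edgeR, 234 in DESeq2, 93 in limma-voom, 91 without a count filter, 114 on molecule equivalents and 6 to 29 without single libraries. The median log2 fold change of tested members was 0.48; it was 0.21 without KO replicate 2 and 0.84 without WT replicate 1, the extremes over single-library removals, and library totals gave 0.59, with the median of all genes at 0.093 in place of -0.016. With limma-voom it was 0.33, with all genes at -0.13. The count of other interferon pathway genes called was 1 (Jak1) and became 0 with DESeq2 size factors, with library totals and with at least 50 counts in 3 libraries, and ran from 0 to 1 without single libraries. In the first 3 the log2 fold change of Jak1 was -1.69, -1.61 and -1.70, against -1.72, with adjusted p of 0.055, 0.054 and 0.085 in edgeR, so the call was lost with little change in size; the cause was not tested. The sign of Nat10 turned with limma-voom (0.02), library totals (0.03) and molecule equivalents (0.08), and ranged from -0.35 to 0.35 without single libraries. Of the 30 tested members 20 kept their sign throughout and 10 did not. Signs turned with limma-voom for Ddx58 (0.04), Ifi27 (-0.25) and Trim21 (-0.72), and on molecule equivalents for Ddx58 (0.08), Parp14 (0.16), Adar (-0.17) and Ifnar1 (-0.44). Without single libraries Irf1 ranged from -0.43 to 0.03, Ddx58 from -0.48 to 0.66, Ifi27 from -0.43 to 0.58, Parp14 from -0.50 to 0.18, Trim25 from -0.94 to 0.14, Trim21 from -0.75 to 1.72, Adar from -0.41 to 0.61, Gbp2 from -0.10 to 1.24, Ifnar1 from -0.58 to 1.91 and Znfx1 from -2.56 to 0.32.

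With the replicate number as a block the median of tested members was 0.45, 0 members were called, and 38 genes were called over the whole table. The sign turned for Ddx58 (0.08), Ifi27 (-0.07) and Trim21 (-0.26). Same-numbered libraries share only a number: their deviations from the group means correlated at -0.017, -0.0026 and -0.0066, so no pairing was assumed.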

Other observations

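Among the 16 tested genes of interferon signalling and sensing, 1 had every KO library above every WT library (Jak2) and 2 had the reverse (Jak1 and Cgas). Cgas is named here after its values were seen. Among the further interferon-induced genes, 5 of 36 tested had every KO library above every WT library and 0 had the reverse, where 6.94% and 7.93% of all tested genes did. These were Irgm1, Daxx, Rtp4, Ly6e and Ube2l6, and the last 4 are named after their values were seen. Rtp4, an interferon-induced protein that curbs innate signalling in mice, had 41.7, 63.4 and 36.6 CPM in KO, against 16.4, 19.5 and 17.3 CPM in WT. Daxx, a histone chaperone of nuclear bodies, had 78.8, 59.1 and 68.9 CPM in KO, against 23.7, 59.0 and 17.9 CPM in WT. Ly6e, a surface protein that affects viral entry, had 34.7, 29.1 and 30.4 CPM in KO, against 0, 0 and 23.1 CPM in WT. Ube2l6, the enzyme that conjugates ISG15 to its targets, had 16.8, 16.7 and 28.5 CPM in KO, against 13.4, 9.49 and 0 CPM in WT. Of these 5 genes none was called by edgeR's quasi-likelihood test, and for Daxx KO replicate 2 and WT replicate 2 nearly met.

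The members with and without an ISRE-like match in their RefSeq promoter were set side by side after their values were seen, as a description with no test. Of the 15 members with a match all had a count, and the mean level was higher in KO for 13 and lower for 2. Of the 20 members with a promoter but no match 19 had a count, 9 higher and 10 lower in KO. Over the tested ones, 9 of 10 with a match had a positive fold change (median 0.83, range -0.12 to 2.73), against 8 of 16 without (median -0.059, range -3.25 to 1.37). The tested ones passed a filter that keeps a gene high in a single group, so they are not a neutral sample. Signs turned in some other settings for Ddx58, Gbp2 and Trim21 with a match. They also turned for Ifnar1, Irf1, Adar, Znfx1 and Trim25 without a match. Of all genes with a count 49.7% were higher in KO, and of all tested genes 49% had a positive fold change. Fold changes of genes outside the list that hold the motif were not examined. Members without a promoter entry are in neither group. Of these, Usp18, Mx2, Dhx58, Parp9 and Ifi27 had a higher mean level in KO and Parp14 a lower one. The members with a match that were lower in KO by mean level were Ddx58 and Oas1a. The receptors, Irf1, Irf3 and Irf9 are among those without a match, and the promoter window covers 300 bases, so matches farther away were not counted.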
